A study of Homo sapiens with 6 samples.

Results

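The ligand IGF2, the receptors IGF1R, IGF2R and INSR, and the IGF-binding proteins IGFBP2 to IGFBP7 were followed through a knockdown of BAHD1 in HEK293 cells, which descend from human embryonic kidney. Members were the probe sets annotated to one of these 10 genes, and for IGF2 also those that name the INS-IGF2 readthrough gene beside it. This gave 30 of the 54675 probe sets on the arrays. The study compared 3 cultures transfected with a BAHD1 siRNA with 3 cultures transfected with a control siRNA. Both groups were HEK293 cells 72 h after lipid transfection, grown in the same serum-containing medium, and each culture was hybridised to 1 array. Its design names the replicates biological and the question is which transcripts change when BAHD1, a chromatin protein that takes part in heterochromatin formation and gene silencing, is depleted. The model rests on 1 cell line and 1 time, and no siRNA sequences were used here.

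IGF2 is a growth factor that signals through IGF1R and through INSR, receptor tyrosine kinases that recruit adaptor proteins and switch on the PI3K-AKT and ERK cascades. IGF2R, also the cation-independent mannose 6-phosphate receptor, binds IGF2 at the cell surface and carries it to lysosomes for degradation. The secreted IGF-binding proteins hold IGFs outside the cell and prolong or limit their action, and IGFBP7 is a more distant relative with low affinity for IGFs. IGF2 is an imprinted gene, and BAHD1 is known to repress it.

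IGF2 lies on chromosome 11 next to INS in the RefSeq annotation of GRCh38.p14. IGFBP2 and IGFBP5 are neighbouring protein-coding genes on chromosome 2, and IGFBP3 lies on chromosome 7 beside IGFBP1. RefSeq-derived promoter windows of 300 bases, 250 before and 50 after the annotated start, were held for 8 of the 10 genes, and IGF2 and IGFBP7 had none. Those of IGF1R and IGFBP5 are shown because IGF1R held the receptor probe set that passed a test below and IGFBP5 is the member with the most probe sets. The capitals mark CG dinucleotides, sites at which vertebrate DNA is methylated.
IGF1R, chr15:98648289-98648588, plus strand: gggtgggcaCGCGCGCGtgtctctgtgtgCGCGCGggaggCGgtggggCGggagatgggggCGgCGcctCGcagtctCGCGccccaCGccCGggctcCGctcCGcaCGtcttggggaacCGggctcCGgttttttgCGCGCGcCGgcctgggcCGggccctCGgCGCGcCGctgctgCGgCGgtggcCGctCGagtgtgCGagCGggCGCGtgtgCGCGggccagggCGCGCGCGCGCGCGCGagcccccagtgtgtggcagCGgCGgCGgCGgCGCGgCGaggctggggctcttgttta
IGFBP5, chr2:216695500-216695799, minus strand: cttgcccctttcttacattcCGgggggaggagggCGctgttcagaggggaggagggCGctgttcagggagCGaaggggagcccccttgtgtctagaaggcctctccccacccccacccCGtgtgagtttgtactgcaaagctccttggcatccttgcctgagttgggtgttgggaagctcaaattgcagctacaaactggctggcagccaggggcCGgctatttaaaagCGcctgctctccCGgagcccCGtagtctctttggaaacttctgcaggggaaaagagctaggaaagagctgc
The IGF1R window held 55 CG dinucleotides, a number reached by 0.373% of the 35116 promoter windows of all genes. That of IGFBP5 held 9, a number reached by 58.4% of windows. Among the other members, IGF2R held 41, INSR and IGFBP3 36 each, IGFBP4 30 and IGFBP6 12, whereas the 3 windows of IGFBP2 held 8, 28 and 6. The windows of the receptors, of IGFBP3 and IGFBP4, and that of IGFBP2 with 28 were thus richer in CG than the median window, which held 14. The arrays measure RNA, so no value below bears on methylation at these windows.

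Each array reports a signal in linear units for every probe set, and the median signal of the 6 arrays lay between 15.8 and 19.5. Pairs of arrays correlated at r = 0.940 to 0.947 within groups and at 0.939 to 0.946 between groups, over all probe sets that are not controls. A shift with signal went with the groups: 60.9% of the probe sets in the dimmest of 4 equal classes of signal and 42.1% in the brightest were higher in BAHD1 siRNA arrays. The 24 probe sets for poly-A RNAs added before labelling were also higher there, at a mean log2 signal of 9.21 ± 0.17 in BAHD1 siRNA arrays and 8.63 ± 0.12 in control arrays (SD, n = 3 each). The 3 probe sets for 28S rRNA averaged 5.52 ± 0.31 in BAHD1 siRNA arrays and 4.78 ± 0.33 in control arrays on the same scale (SD, n = 3 each). The part of these shifts in the results below was not tested. Markers of HEK293 cells were present, with all 6 listed genes bright enough to test. Of their 8 tested probe sets, 3 rose (NEFL at 2, NEFM at 1) and 1 fell (VIM) in the trend fit described below. That fit called 4.45% of all tested probe sets. Each of the marker calls held in only 1 of its runs with 1 array left out. None of the listed leukocyte and hepatocyte probe sets was bright enough to test, and summed leukocyte signals were 36.1 to 45.4 in BAHD1 siRNA arrays and 15.6 to 41 in control arrays. Of 6 fibroblast genes only COL1A1 was testable, and the summed fibroblast signals were 335 to 481.5 in BAHD1 siRNA arrays and 326.1 to 375.9 in control arrays. Hepatocyte signals summed to 28.4 to 51.7 in BAHD1 siRNA arrays and 22.5 to 48 in control arrays.

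BAHD1 itself, the targeted gene, was read by 1 probe set (203051_at), with signals of 36.6, 46.8 and 41.2 in BAHD1 siRNA arrays and 62.9, 55.7 and 46.7 in control arrays. The groups met at 46.8 and 46.7. The level in BAHD1 siRNA cells was 76.0% of that in control cells on the log2(signal + 1) scale, and the difference was not called (limma, adjusted p = 0.251 in both fits described below).

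Differences were tested with limma on log2(signal + 1), and a log2 difference is always BAHD1 siRNA minus control siRNA. A probe set was tested when its signal was above 17.9, the median of all values, in at least 3 arrays, which left 27458. The first fit, with a single variance prior (the one-prior fit), called 0 of them at an adjusted p under 0.05, although 4843, or 17.6%, had an unadjusted p under 0.05. A second fit, whose prior follows the mean signal (the trend fit), called 1221 of them, or 4.45%, with 596 higher and 625 lower in BAHD1 siRNA cells. With array medians centred it called 192 higher and 1515 lower, so that direction counts depend on the scaling. The one-prior fit was the test set for every result, and the trend fit was run as an alternative to it. Rose and fell below are used of calls in the trend fit, and the one-prior fit made none of these calls. In cultures of whole cells, a change in the share of cells that hold a transcript and a change in RNA per cell cannot be told apart.

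Of the 30 member probe sets, 23 from 9 genes were bright enough to be tested, and 2 rose and 1 fell in BAHD1 siRNA cells. Both rises were IGFBP7 and the fall was 1 probe set of IGF1R. Over all tested probe sets the shares that rose and fell were 2.17% and 2.28%. Positive differences were seen in 9 of 10 tested probe sets of the binding proteins and in 4 of 12 of the receptors, and in 52% of all tested probe sets. Probe sets of the same gene share their transcript and are not independent, and the difference between the roles was not tested. Their median log2 differences were 0.62 and -0.06, against 0.01 over all tested probe sets. The groups did not overlap in 9 member probe sets, 7 higher and 2 lower in BAHD1 siRNA arrays, whereas 25.6% of all tested probe sets had no overlap (13.4% higher and 12.2% lower). In the one-prior fit no member passed, and 8 of the 23 had an unadjusted p under 0.05, where 17.6% of all tested probe sets did. In the trend fit these were 12, where 20.9% of all tested probe sets were under 0.05. In the dimmest and the brightest of the 4 signal classes lay 8 and 3 of the 23 members.

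**Figure D1:**
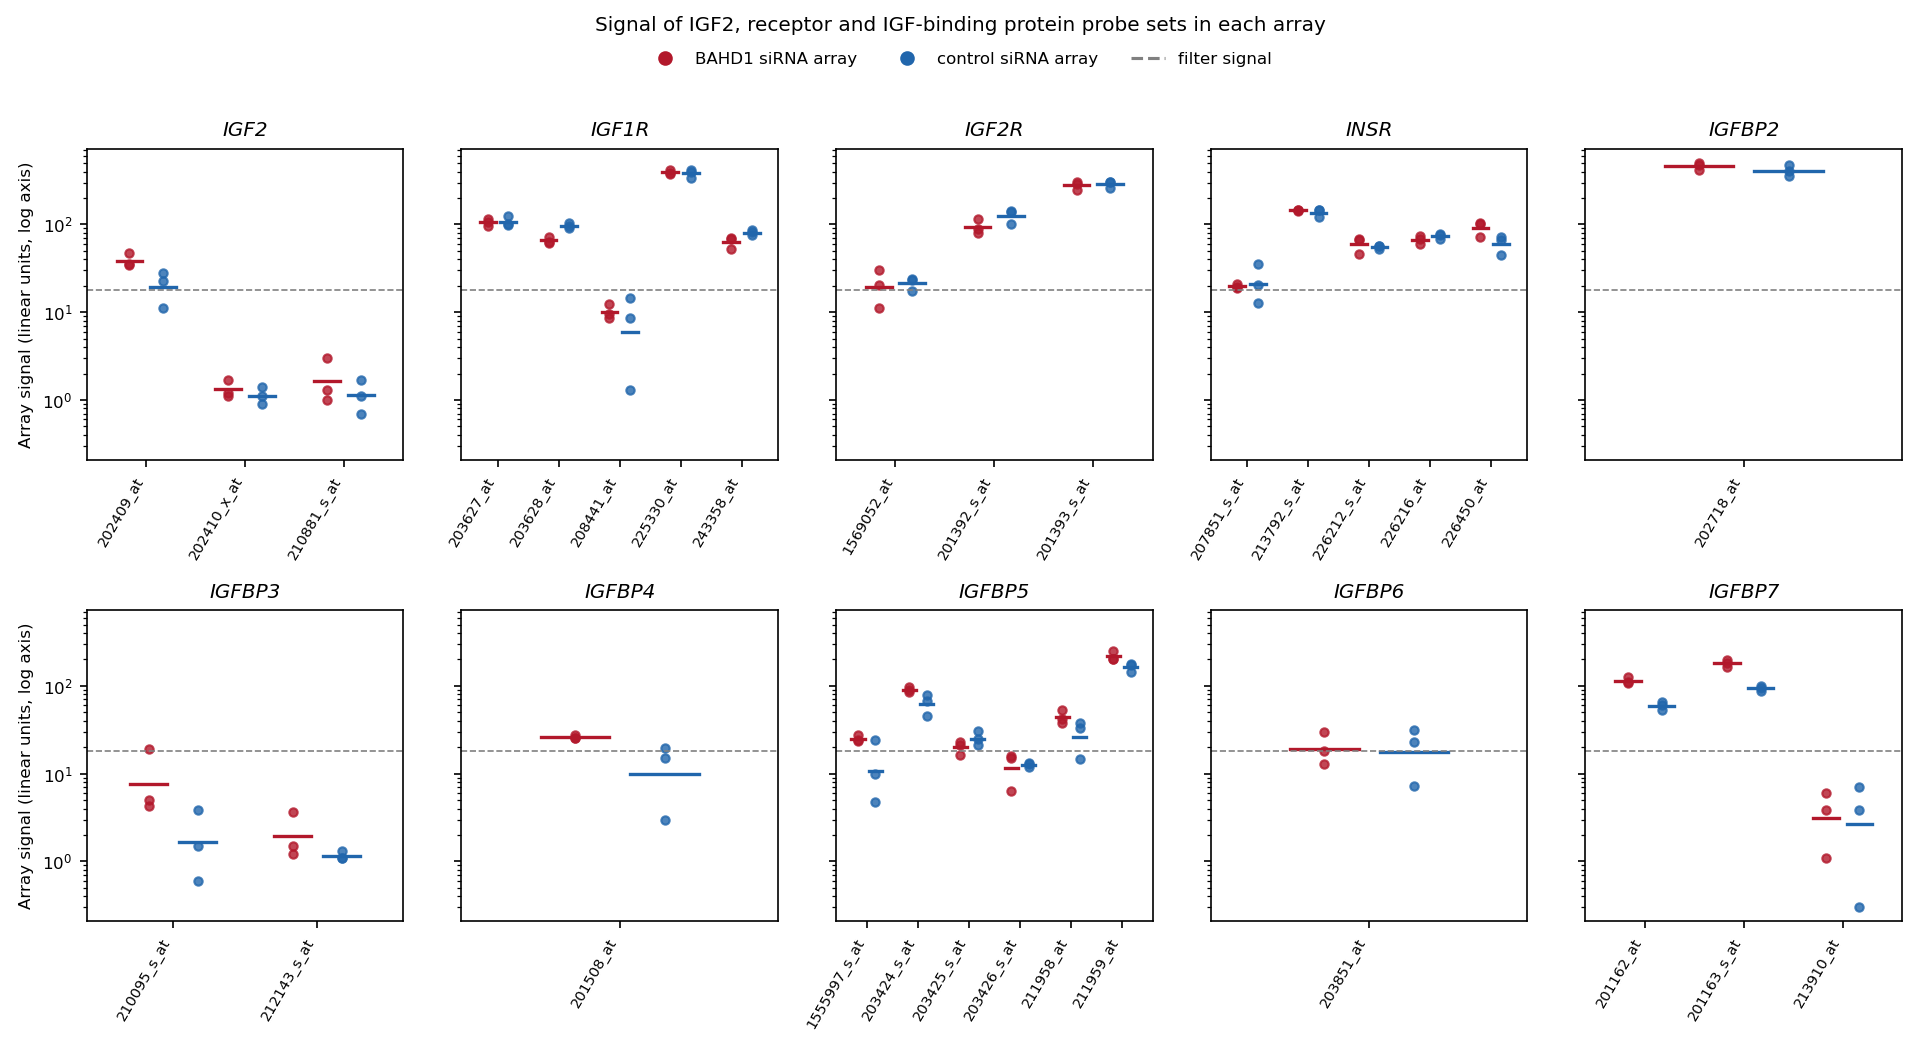
Signal of every member probe set in each array (linear units on a log axis), by gene, with BAHD1 siRNA arrays in red at the left and control siRNA arrays in blue at the right of each pair. Short bars are group means taken on the log2(signal + 1) scale and the dashed line is the filter signal of 17.9. The 2 bright IGFBP7 probe sets show groups that are far apart, and both IGFBP3 probe sets have group means below the filter signal.

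IGF2 was read by 3 probe sets, of which 1 (202409_at) was bright enough to be tested. Its signals were 34.1, 46.8 and 35.1 in BAHD1 siRNA arrays, against 11.3, 27.7 and 22.8 in control arrays. All 3 BAHD1 siRNA values lay above all 3 control values, and control replicate 1 was the lowest. The log2 signal was 5.30 ± 0.25 in BAHD1 siRNA cells and 4.35 ± 0.64 in control cells (SD, n = 3 each), a 1.93-fold difference that was not called (log2 difference 0.95, SE 0.33; limma adjusted p = 0.231 in the one-prior fit, 0.115 in the trend fit). The exact two-sided permutation p was 0.1, the smallest that 3 arrays against 3 can give. Without control replicate 1 the log2 difference was 0.59, and with 16 in place of 1 added before the log, a setting that damps dim probe sets, it was 0.60.

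The other IGF2 probe sets lay far below the filter signal. For 202410_x_at the signals were 1.2, 1.7 and 1.1 in BAHD1 siRNA arrays and 1.4, 0.9 and 1.1 in control arrays. For 210881_s_at they were 1.3, 1.0 and 3.0 in BAHD1 siRNA arrays and 1.1, 0.7 and 1.7 in control arrays. Both had overlapping groups, so the difference at IGF2 rests on 1 probe set. All 3 probe sets also carry INS-IGF2 in their annotation, so neither gene can be singled out.

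IGF1R, the receptor tyrosine kinase for IGFs, was read by 5 probe sets, of which 4 were tested and 1 fell. One of them, 203628_at, had signals of 63.5, 72.7 and 62.2 in BAHD1 siRNA arrays, against 95.1, 90.2 and 105.1 in control arrays. The groups lay clearly apart, and the log2 signal was 6.07 ± 0.12 in BAHD1 siRNA cells and 6.61 ± 0.11 in control cells (SD, n = 3 each). This probe set fell by 0.54 on the log2 scale (SE 0.14; limma adjusted p = 0.0450 in the trend fit, 0.141 in the one-prior fit). The call stood close to the threshold and was lost when any 1 of the 6 arrays was left out (adjusted p = 0.0819 to 0.147) and when no filter was applied (0.102).

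A second IGF1R probe set, 243358_at, had signals of 52.3, 67.6 and 69.8 in BAHD1 siRNA arrays and 86.6, 81.3 and 75.2 in control arrays. Its groups did not overlap either, but its log2 difference of -0.36 did not pass (SE 0.14; limma adjusted p = 0.255 in the one-prior fit, 0.208 in the trend fit). The probe set 225330_at had 383.2, 418.9 and 375.6 in BAHD1 siRNA arrays and 338.2, 415.4 and 399.8 in control arrays, a log2 difference of 0.03 ± 0.11 (SE). For 203627_at the signals were 97.1, 116.3 and 105.4 in BAHD1 siRNA arrays and 99.5, 125.3 and 100.6 in control arrays, with a log2 difference of -0.02 ± 0.13 (SE). In both the groups overlapped throughout. The remaining one, 208441_at, stayed below the filter signal on every array, at 8.7 to 12.4 in BAHD1 siRNA arrays and 1.3 to 14.5 in control arrays.

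IGF2R, the receptor that clears IGF2, had negative differences at all 3 of its probe sets, and none passed. The probe set 201392_s_at had signals of 80.3, 89.3 and 114.7 in BAHD1 siRNA arrays and 142.8, 101.6 and 137.6 in control arrays. BAHD1 siRNA replicate 3 lay above control replicate 2, so the groups overlapped. Its log2 difference was -0.42 (SE 0.19; limma adjusted p = 0.311 in the one-prior fit and 0.160 in the trend fit). When array medians were centred, which moved the median difference of all tested probe sets to -0.13, the trend fit called this probe set as well (log2 difference -0.56, adjusted p = 0.0332). For 201393_s_at the signals were 245.9, 288.3 and 307.8 in BAHD1 siRNA arrays and 300.8, 259.4 and 305.5 in control arrays. Its groups were interleaved, with a log2 difference of -0.04. The dim probe set 1569052_at ran from 11.1 to 30.4 in BAHD1 siRNA arrays and from 17.6 to 23.9 in control arrays, with a log2 difference of -0.15.

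INSR, the insulin receptor, which also binds IGF2, was tested at 5 probe sets, with 3 positive and 2 negative differences and none past the threshold. The largest of the 5 was at 226450_at, with signals of 72.0, 101.4 and 103.8 in BAHD1 siRNA arrays and 66.0, 72.6 and 44.5 in control arrays. Only BAHD1 siRNA replicate 1 and control replicate 2, at 72.0 and 72.6, kept the groups from separating. The log2 difference was 0.60 (SE 0.23; limma adjusted p = 0.261 in the one-prior fit and 0.107 in the trend fit). The other 4 had log2 differences of -0.16 (226216_at), -0.08 (207851_s_at), 0.09 (213792_s_at) and 0.10 (226212_s_at), each with overlapping groups. Of these, 213792_s_at was the steadiest, with 147.4, 143.3 and 145 in BAHD1 siRNA arrays and 122.2, 144.5 and 144.2 in control arrays.

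IGFBP7, the distant relative of the family that is also found in basement membranes and is known as a product of vascular and senescent cells, rose at both of its bright probe sets. For 201163_s_at the signals were 181.7, 165.1 and 195.7 in BAHD1 siRNA arrays, against 93.5, 87.5 and 100.9 in control arrays. For 201162_at they were 107.3, 125.5 and 110.6 in BAHD1 siRNA arrays, against 65.5, 60.3 and 52.6 in control arrays. The lowest BAHD1 siRNA value exceeded the highest control value by a wide margin in both, and no single array carried the difference.

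On the log2 scale, 201163_s_at stood at 7.50 ± 0.12 in BAHD1 siRNA cells and 6.57 ± 0.10 in control cells, and 201162_at at 6.85 ± 0.12 in BAHD1 siRNA cells and 5.91 ± 0.16 in control cells (SD, n = 3 each). Both differences were 0.94, a 1.91-fold rise. The limma adjusted p was 0.00343 for 201163_s_at and 0.00672 for 201162_at in the trend fit, and 0.112 for each in the one-prior fit. No tested probe set had a lower adjusted p in that fit, but the adjustment gives tied values, so this is no rank. The 2 probe sets share the value although their unadjusted p differed (limma, 9.34e-05 and 0.000185). In the trend fit both calls held without any 1 array, with adjusted p of 0.00701 to 0.0197 and of 0.0109 to 0.0423. With the stricter filter both also passed in the one-prior fit (adjusted p = 0.00577 and 0.00688). In that setting the one-prior fit called 531 higher and 616 lower of 13876 tested probe sets, so passing there was not particular to IGFBP7. The exact two-sided permutation p was 0.1 for each. The remaining IGFBP7 probe set, 213910_at, had signals of 1.1, 6.0 and 3.8 in BAHD1 siRNA arrays and 7.0, 3.8 and 0.3 in control arrays and was too dim to test. Summed signals of the 4 endothelial marker genes, a class of cells that makes IGFBP7, were 53.2 to 64.9 in BAHD1 siRNA arrays and 35.3 to 51.4 in control arrays. Of their 9 probe sets 1 was bright enough to test and 0 were called.

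**Figure D2:**
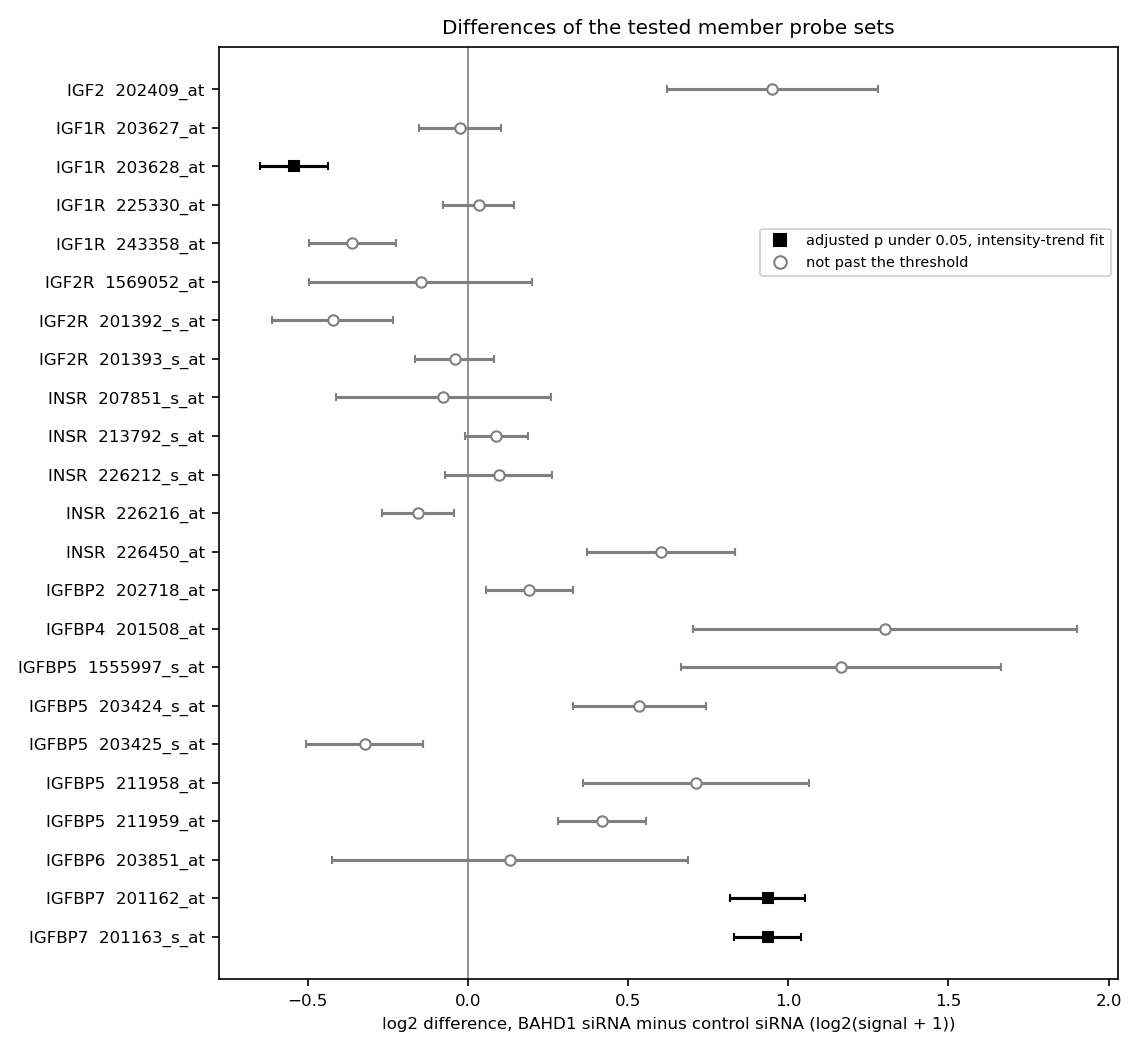
Log2 difference between BAHD1 siRNA and control siRNA arrays for each of the 23 tested member probe sets, with bars of 1 SE from the one-prior fit. Filled squares passed an adjusted p of 0.05 in the trend fit: both IGFBP7 probe sets at 0.94 and IGF1R 203628_at at -0.54.

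IGFBP5, a binding protein that also attaches to extracellular matrix, had 6 probe sets, of which 5 were tested and none passed. Of the 5, 4 had positive differences and 3 had groups that did not overlap. At 211959_at the signals were 253, 201 and 202.5 in BAHD1 siRNA arrays and 142.1, 171.4 and 176.3 in control arrays. All BAHD1 siRNA values were the higher ones, and the log2 difference was 0.42 (SE 0.14; limma adjusted p = 0.219 in the one-prior fit and 0.0690 in the trend fit). Under the stricter filter the trend fit called it (adjusted p = 0.0427).

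The other separated IGFBP5 probe sets were 203424_s_at and 211958_at. At 203424_s_at the signals were 97.4, 85.5 and 89.4 in BAHD1 siRNA arrays and 45.3, 79.3 and 67.1 in control arrays (log2 difference 0.53, SE 0.21). At 211958_at they were 42.1, 53.3 and 38.1 in BAHD1 siRNA arrays and 38.0, 14.8 and 32.7 in control arrays (log2 difference 0.71, SE 0.35), so that the groups were parted by 0.1 units of signal. Neither passed (limma adjusted p = 0.125 and 0.209 in the trend fit). Without control replicate 1 the difference at 203424_s_at was 0.31, and without control replicate 2 that at 211958_at was also 0.31. The dimmer 1555997_s_at had 23.8, 27.7 and 23.9 in BAHD1 siRNA arrays and 4.8, 23.9 and 9.9 in control arrays. Its log2 difference of 1.16 did not pass either (limma adjusted p = 0.298 in the one-prior fit), and control replicate 2 lay at the level of BAHD1 siRNA replicates 1 and 3. Leaving out control replicate 1 gave 0.66, leaving out control replicate 2 gave 1.71, and the log2(signal + 16) scale gave 0.56. In the opposite direction, 203425_s_at had 16.1, 21.1 and 23.1 in BAHD1 siRNA arrays and 21.1, 24.7 and 30.4 in control arrays, with a log2 difference of -0.32 and overlapping groups. The probe sets of this gene thus disagreed in sign, and 203426_s_at was below the filter signal on all arrays, at 6.4 to 15.7.

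IGFBP4, a binding protein that the protease pappalysin cleaves, was read by 1 probe set, 201508_at. Its signals were 25.6, 25.4 and 27.5 in BAHD1 siRNA arrays and 3.0, 19.6 and 15.2 in control arrays. The BAHD1 siRNA values were tight and lay above all control values, but the control values were spread widely, at a log2 signal of 3.46 ± 1.28, against 4.76 ± 0.06 in BAHD1 siRNA cells (SD, n = 3 each). The log2 difference of 1.30 did not pass (SE 0.60; limma adjusted p = 0.321 in the one-prior fit and 0.206 in the trend fit). It was 0.57 without control replicate 1 and 0.61 on the log2(signal + 16) scale.

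IGFBP2, a binding protein with a preference for IGF2, had signals of 499.7, 475.3 and 420.5 in BAHD1 siRNA arrays and 403.9, 470.5 and 352.8 in control arrays. The groups overlapped, and the log2 difference was 0.19 (SE 0.14; limma adjusted p = 0.495 in the one-prior fit and 0.320 in the trend fit). IGFBP6, which prefers IGF2 strongly over IGF1, had signals of 18.2, 13 and 30.2 in BAHD1 siRNA arrays and 23.0, 31.1 and 7.3 in control arrays. These were interleaved around the filter signal, with a log2 difference of 0.13 ± 0.55 (SE). IGFBP3, the main carrier of IGFs in blood, was not tested. Its probe set 210095_s_at had 19.1, 4.3 and 5.0 in BAHD1 siRNA arrays and 0.6, 3.8 and 1.5 in control arrays, with 1 of the 6 above the filter signal. The other, 212143_s_at, had 1.2, 1.5 and 3.7 in BAHD1 siRNA arrays and 1.3, 1.1 and 1.1 in control arrays.

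**Figure D3:**
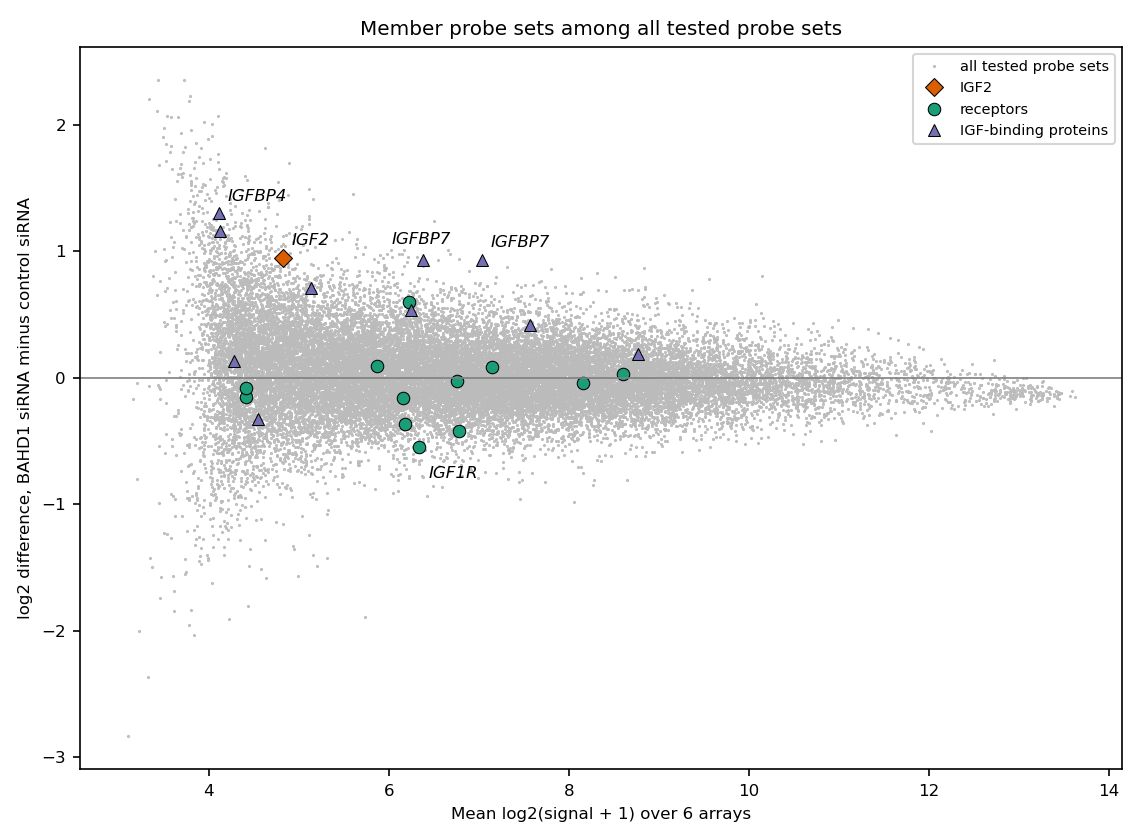
Log2 difference between BAHD1 siRNA and control siRNA arrays against mean log2(signal + 1) over the 6 arrays, for all 27458 tested probe sets in grey and for the 23 member probe sets by role. IGFBP4 and IGF2 lie at the dim end, where differences of all probe sets spread widely, and the IGFBP7 probe sets lie at the upper edge of the cloud at a medium signal.

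Single arrays shaped some of these patterns. Control replicate 1 was the lowest of the 6 arrays at 8 of the 23 tested member probe sets (34.8%), where it was the lowest at 19.3% of all tested probe sets. BAHD1 siRNA replicate 1 was the lowest at 7 (30.4%, against 15.1% of all tested probe sets). BAHD1 siRNA replicate 2 was the lowest at 0 of the 23, against 14.3% of all tested probe sets, and the highest at 7, against 16.7%. The differences of IGF2 and IGFBP4 with each array left out ran from 0.59 to 1.20 and from 0.57 to 1.75 on the log2 scale, whereas those of IGFBP7 201163_s_at stayed between 0.88 and 1.0.

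**Figure D4:**
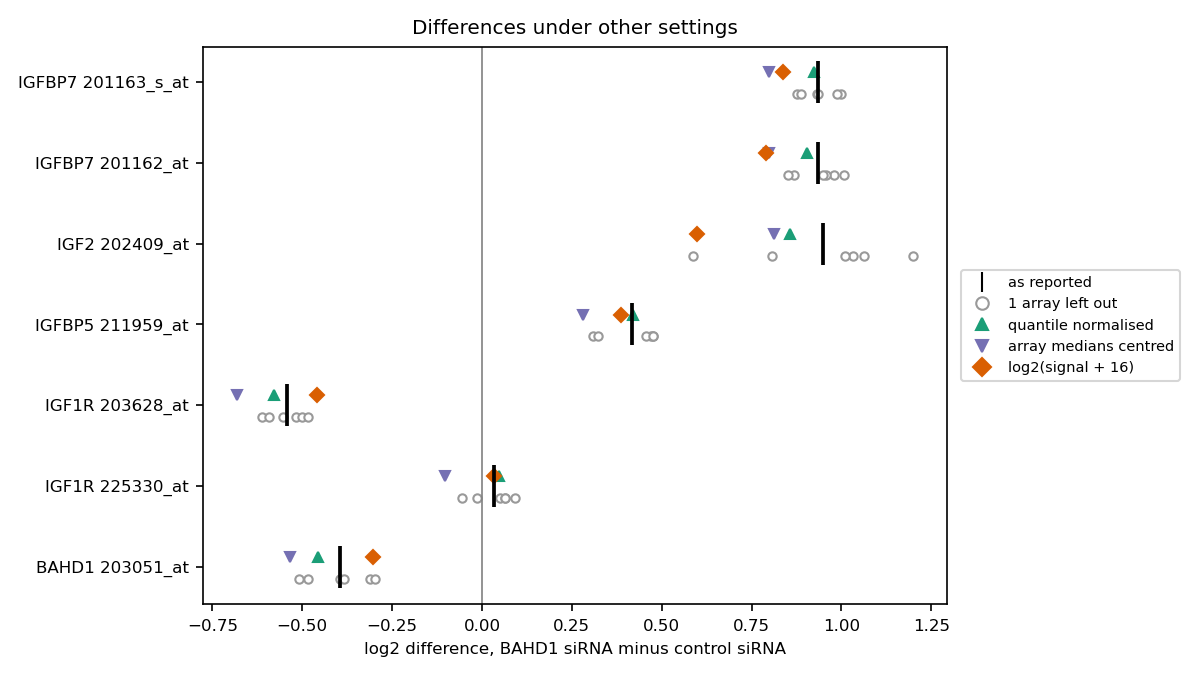
Log2 difference between BAHD1 siRNA and control siRNA arrays for 6 member probe sets and BAHD1, as reported (black line), with 1 array left out (open circles), and with quantile normalisation, centred array medians or log2(signal + 16) (coloured marks). IGFBP7 stayed above 0.79 under the settings shown, IGF2 ran from 0.59 to 1.20, and IGF1R 225330_at lay on both sides of 0.

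The wider pathway was described with a list of 57 other genes, 40 of which had a probe set bright enough to test, 81 probe sets in all. Of the 81, 0 rose and 1 fell, so 1.23% were called, where 4.45% of all tested probe sets were. In the one-prior fit 0 were called and 12 had an unadjusted p under 0.05, where 17.6% of all tested probe sets did. Positive differences were seen in 41 and negative ones in 40, the median log2 difference was 0.00, and the groups did not overlap in 23.5%, against 25.6% of all tested probe sets. The ligand genes IGF1 and INS were too dim to test, with no signal above 41.9.

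The probe set that fell belongs to ADAM9, a membrane metalloprotease that can cleave IGF-binding proteins. At 1555326_a_at the signals were 197.4, 182.0 and 187.2 in BAHD1 siRNA arrays and 256.9, 239.0 and 254.2 in control arrays. It fell by 0.40 on the log2 scale (limma adjusted p = 0.0284 in the trend fit, 0.142 in the one-prior fit). The call was lost with no filter (adjusted p = 0.0701) and when any 1 of the 6 arrays other than BAHD1 siRNA replicate 1 was left out (up to 0.107). The other ADAM9 probe sets disagreed with each other, at -0.17 (202381_at) and 0.77 (1570042_a_at), and neither passed. Among the other genes that act on IGF-binding proteins, PAPPA2, a pappalysin protease that cleaves IGFBP5, had 43.1, 47.9 and 47.5 in BAHD1 siRNA arrays and 34.9, 27.6 and 22 in control arrays at 211918_x_at. Its other probe sets were too dim to test and had overlapping groups, at 0.36 (213332_at), -0.15 (214689_at) and 0.92 (228237_at). HTRA1, a secreted protease that also cleaves IGFBP5, had 101.4, 102.2 and 116.7 in BAHD1 siRNA arrays and 82.6, 89.3 and 66.2 in control arrays. Both were separated without passing the test, at log2 differences of 0.72 and 0.43 (limma adjusted p = 0.0886 and 0.109 in the trend fit).

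M6PR, the cation-dependent mannose 6-phosphate receptor, had separated groups with little spread, at 215.9, 222.6 and 219.2 in BAHD1 siRNA arrays and 266.5, 266.0 and 264.2 in control arrays. Its log2 difference of -0.28 did not pass (limma adjusted p = 0.179 in the one-prior fit, 0.0809 in the trend fit). The trend fit called it with centred medians (adjusted p = 0.0433) and under the stricter filter (0.0484). The proprotein convertase genes PCSK4 and PCSK6, whose enzyme family matures IGF precursors, had log2 differences of 0.52 and 0.68 that did not pass. The RNA-binding proteins IGF2BP1 and IGF2BP3, which bind IGF2 mRNA, stood at 0.04 and 0.13 at their brightest probe sets, and both turned negative with centred medians (-0.095 and -0.013). The other tested probe sets of IGF2BP1 had -0.37 (223689_at, lower in BAHD1 siRNA arrays with no overlap) and -0.23 (241574_s_at), and both others of IGF2BP3 had -0.14 (203819_s_at and 216493_s_at). None of these passed. IGFBPL1, a relative of the binding proteins, stood at 0.00.

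Downstream of the receptors no tested gene passed. Of the listed genes, 10 of 14 in the PI3K-AKT arm and 4 of 9 in the ERK cascade had a probe set annotated to them alone. The adaptor SH2B2 and the feedback inhibitor SOCS3 had log2 differences of 0.27 and 0.61. In the PI3K-AKT arm, the kinase genes PDPK1 and GSK3B had 0.21 and -0.18 at their brightest probe sets. The other tested probe sets of PDPK1 had 0.53 (204524_at, higher in BAHD1 siRNA arrays with no overlap) and 0.22 (32029_at). Those of GSK3B had -0.14 to -0.05. In the ERK cascade the GTPase gene HRAS and the kinase gene MAPK3 had -0.24 and 0.14. IRS4, an insulin receptor substrate first found in HEK293 cells, had signals of 5281.8, 5308.7 and 5228.9 in BAHD1 siRNA arrays and 5445.8, 5377.4 and 4654.5 in control arrays at its brightest probe set, a log2 difference of 0.04 ± 0.09 (SE). The receptor adaptors and kinases therefore gave values on both sides of 0.

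**Figure D5:**
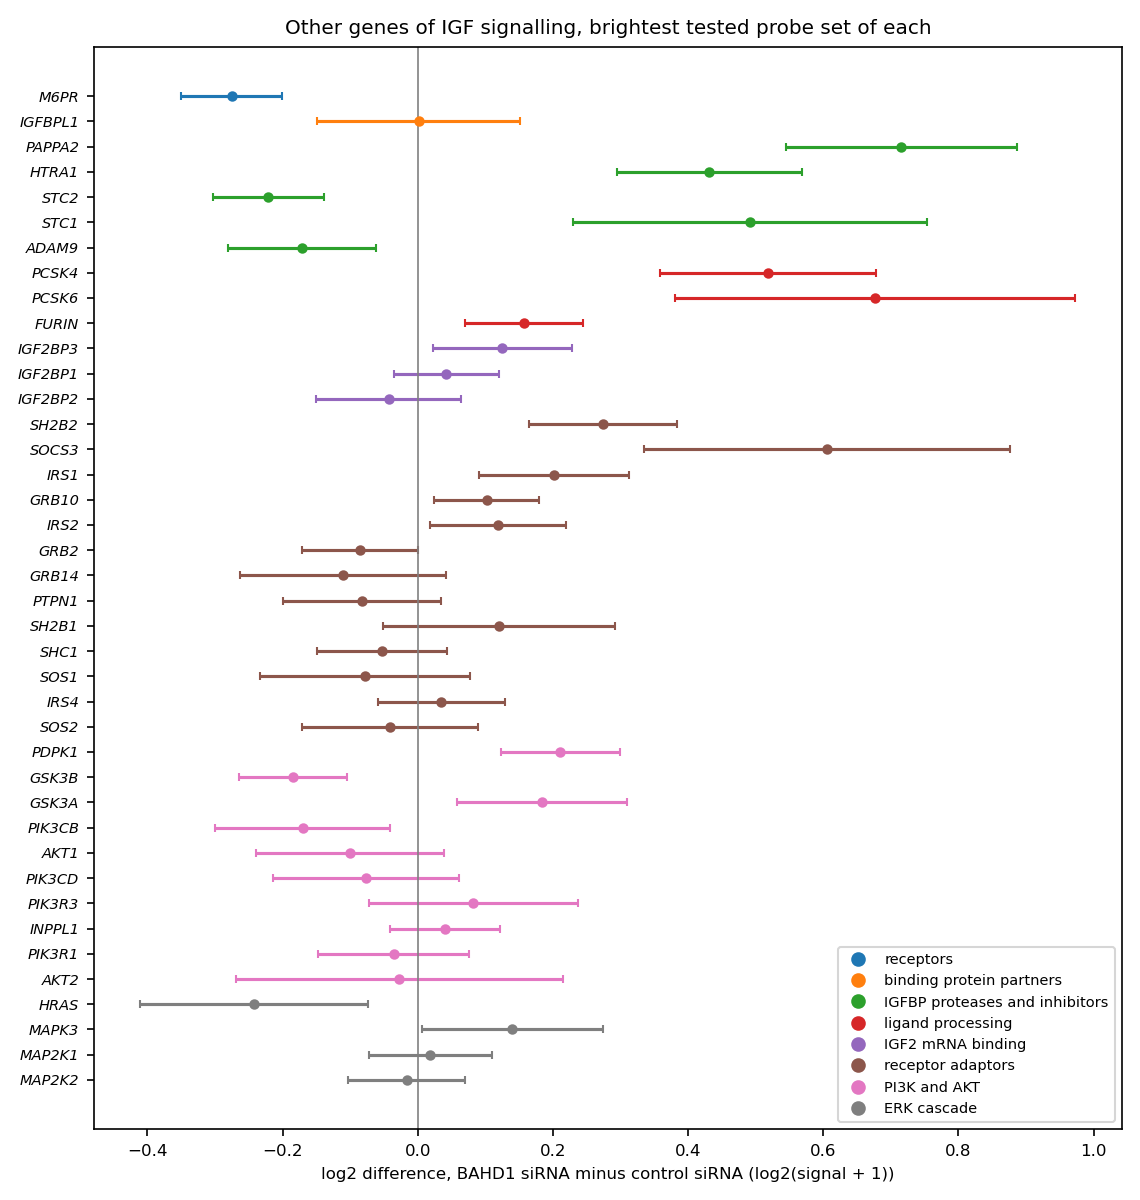
Log2 difference between BAHD1 siRNA and control siRNA arrays for the brightest tested probe set of each of the 40 other IGF pathway genes, with bars of 1 SE from the one-prior fit and colours for the genes' roles. Values lie on both sides of 0, from M6PR at -0.28 to PAPPA2 at 0.72.

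Probe sets of other genes followed the profiles of IGF2 and IGFBP7 closely over the 6 arrays, as a description of these arrays. For IGF2 202409_at the highest Pearson correlations of log2(signal + 1) were with MYCBP2 and TNS1 (r = 0.994 each) and SOCS5 (r = 0.994), out of 23547 tested probe sets, those annotated with a single gene and that of IGF2. TNS1 had 23.3, 27.7 and 23.1 in BAHD1 siRNA arrays and 11.3, 20.6 and 19.1 in control arrays. As for IGF2, BAHD1 siRNA replicate 2 was the highest and control replicate 1 the lowest. For IGFBP7 201163_s_at they were with RTN1 (r = 0.9995), PTGR2 (r = 0.998) and DPH3 (r = 0.998). RTN1 had 73.4, 68.4 and 76.3 in BAHD1 siRNA arrays and 45.6, 43.7 and 49.1 in control arrays. Correlations above 0.9 were seen for 490 probe sets with IGF2 and for 862 with IGFBP7, over 6 arrays in 2 groups.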

How the data were processed

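Total RNA of 6 HEK293 cultures was labelled from oligo(dT) primers by one round of in vitro transcription, per the labels' protocols. The deposited values are intensities in linear units, 1 for every probe set of each array. GCOS and GCRMA are named, with no role or version, per the submitters' processing notes. Each column's mean without its top and bottom 2% was 100, so the authors' values were taken as scaled signals. The genome build and detection calls were not given in the sources used here.

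Samples were grouped by title. The 62 control probe sets were left out, and log2(signal + 1) was fitted in R 4.3.3 with limma 3.58.1 (lmFit, eBayes with one prior, no covariates), with Benjamini-Hochberg adjustment over all 27458 tested probe sets at 0.05. The trend fit used eBayes with trend and robust. The fit was tested on simulated arrays of independent noise, which held no shift with signal such as the one seen here. Gene symbols came from the platform annotation, and listed symbols were checked against RefSeq. Alternatives were the trend fit, other filters, scalings and pseudocounts, a replicate block and each array left out. The trend fit was combined with other scalings, pseudocounts and filters after the data were seen. The members and gene lists were chosen with earlier results of these data known. All members are named, and from the pathway list the genes called and, per role, the 2 with the smallest p at their brightest probe set. STC2 and IRS4 were chosen after their values were seen. Likeness took the 3 highest correlations. The number of arrays limits the precision.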

Additional observations from a re-analysis of the deposited data

Results flagged for a closer look

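One signal lies outside the probe sets compared above. The 24 probe sets for poly-A RNA controls were higher in BAHD1 siRNA arrays than in control arrays by a mean of 0.587 on the log2 scale, with no overlap between groups in any of the 24 (a permutation test of their mean, exact and two-sided, gave p = 0.1, the smallest possible). The 18 hybridisation controls had a mean log2 difference of -0.15 (exact permutation p = 0.4). On 28S rRNA, 3 probe sets averaged a log2 signal of 5.52 ± 0.31 in BAHD1 siRNA arrays and 4.78 ± 0.33 in control arrays (SD, n = 3 each), and 2 of the 3 had no overlap between groups (exact permutation p = 0.1). No explanation was tested.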

How the results depend on the processing

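Over all probe sets the one-prior fit called 0 as reported and with no filter, quantile normalisation, centred medians, log2(signal + 16) or the replicate block, 0 to 4 with 1 array left out (4 without control replicate 2) and 1147 with the stricter filter, which tests fewer probe sets. The trend fit called 1221, and 1233 after quantile normalisation, 1707 with centred medians (192 higher and 1515 lower, or 11.2% higher, against 48.8% as reported), 1319 on the log2(signal + 16) scale, 398 with no filter, 1622 with the stricter filter, and 193 to 1196 with 1 array left out. These counts were 193 and 206 without BAHD1 siRNA replicates 2 and 3, 293 and 273 without control replicates 1 and 2, 1148 without BAHD1 siRNA replicate 1 and 1196 without control replicate 3. Centring moved the median of all differences to -0.13; the cause of the other changes was not tested.

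Of the members, 0 were called in the one-prior fit under its alternatives, except 2 with the stricter filter. The trend fit called 3, also after quantile normalisation, on the log2(signal + 16) scale and with the stricter filter (there IGFBP5 211959_at in place of IGF1R). It called 4 with centred medians, and 2, both IGFBP7, with no filter and without any 1 array. Of the pathway probe sets, the one-prior fit called 0, and 2 with the stricter filter. The trend fit called 1, also after quantile normalisation and on the log2(signal + 16) scale, 3 with centred medians, 3 with the stricter filter, 0 with no filter and 0 to 1 with 1 array left out (1 without BAHD1 siRNA replicate 1).

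IGFBP7 201163_s_at passed in the one-prior fit with the stricter filter (0.94), and in the trend fit at 0.94 with each filter on dim probe sets, at 0.92 after quantile normalisation, at 0.80 with centred medians, at 0.84 on the log2(signal + 16) scale and at 0.88 to 1.0 with 1 array left out. For IGF2 and BAHD1 none of the alternatives run changed the direction or made the difference pass, and the stricter filter left IGF2, BAHD1 and IGF1R 203628_at untested.

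Over single members and settings, 570 alternative values were computed: 504 kept their direction and side of the threshold, 34 passed it and 32 changed sign. All that changed sign had a reported difference of at most 0.148 in size. With centred medians IGF1R 225330_at stood at -0.10, INSR 213792_s_at at -0.050, INSR 226212_s_at at -0.043 and IGFBP6 at -0.0073 (-0.015 after quantile normalisation). With 1 array left out, IGF1R 203627_at ran from -0.091 to 0.082, IGF1R 225330_at from -0.055 to 0.092, IGF2R 1569052_at from -0.47 to 0.22, IGF2R 201393_s_at from -0.12 to 0.050, INSR 207851_s_at from -0.42 to 0.28, INSR 226212_s_at from -0.0028 to 0.28 and IGFBP6 from -0.45 to 0.53.

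Whether the replicate numbers pair the samples is not stated in the labels and was not settled here. Deviations from the group means of equally numbered arrays correlated at 0.0101, 0.0102 and 0.0239. Those of unequally numbered arrays correlated at -0.0278 to 0.017. With the numbers as a replicate block, the trend fit called 1629 probe sets, with 2 members (both IGFBP7, 0.94) and 1 pathway probe set, and 203628_at of IGF1R had an adjusted p of 0.0541 (limma).

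Dim probe sets limit what can be seen: 7 of 30 members, IGFBP3 included, were not tested, and no detection call says which low signals stand above background.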

Other observations

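STC2, which encodes stanniocalcin 2, an inhibitor of the pappalysin proteases that cleave IGF-binding proteins, had signals of 845.9, 781.6 and 768.9 in BAHD1 siRNA arrays and 949.5, 931.1 and 910.7 in control arrays at 203438_at. The groups did not overlap, and the log2 difference of -0.22 did not pass (limma adjusted p = 0.252 in the one-prior fit, 0.0804 in the trend fit). The trend fit called it with centred medians (adjusted p = 0.0480) and under the stricter filter (0.0470). Its other probe set, 203439_s_at, had overlapping groups and a log2 difference of 0.09.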
